A study of Homo sapiens with 60 samples.

Results

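The regions described here are the RAD21 sites that were found in every condition of a CUT&RUN study of PC9 cells, a human lung adenocarcinoma line. CUT&RUN releases and sequences chromatin fragments where an antibody is bound. RAD21 peaks of the 22 autosomes that passed a global IDR limit of 0.05 were pooled from 6 lists, and overlapping peaks were merged into 19576 regions. The IDR (irreproducible discovery rate) measures how well the rank of a peak agrees between replicates, and a low value means good agreement. A region was a member if it overlapped such a peak, by 1 bp or more, in all 6 lists. There were 1732 members, 8.85% of the regions (Wilson 95% interval 8.46% to 9.25%), called shared regions below. The other 17844 regions were held by 1 to 5 lists. Members were therefore chosen by RAD21 calls, so their RAD21 strength, width and spacing are given as descriptions with no test. PDS5A, H3K27Ac and IgG peaks played no part in the choice.

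The cells had 3 genotypes. Rescue cells were METTL7A knockout cells made to overexpress METTL7A carrying MYC and FLAG tags, so they share the deletion of the KO cells. KO cells lacked METTL7A, a methyltransferase-like protein, and WT cells were unmodified PC9. Each genotype was either grown for 6 to 8 weeks under osimertinib, an inhibitor of mutant EGFR, at doses raised stepwise from 100 nM, or left untreated. Every condition gave 1 list per antibody, joined from 2 replicates, and the sources used here do not say whether the KO line is 1 clone or whether replicates were separate cultures. The lists cannot check the loss of METTL7A.

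Cohesin is a ring-shaped complex that encircles DNA and extrudes chromatin loops. RAD21 is the subunit that closes the ring, and cohesin gathers where loop extrusion is halted, often at sites of the insulator protein CTCF. PDS5A binds cohesin through RAD21 and helps to regulate both its release from DNA and its stabilisation. H3K27Ac, acetylation of lysine 27 of histone H3, marks active promoters and enhancers, where cohesin is also found. IgG is the control antibody, which binds no chosen target.

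The lists limited the membership unequally. They held 10864 passing RAD21 peaks in treated Rescue cells, 8993 in untreated Rescue, 4293 in treated KO, 5283 in untreated KO, 16340 in treated WT and 3635 in untreated WT cells. Peaks within shared regions made up 16.1% of the list in treated Rescue, 19.6% in untreated Rescue, 40.7% in treated KO, 33.2% in untreated KO, 10.7% in treated WT and 48.0% in untreated WT cells. The list of untreated WT cells held the weakest IDR of a member at 718 shared regions, and that of treated KO cells did so at 563. By number of lists, from 1 to 6, the regions numbered 8270, 3553, 2433, 1937, 1651 and 1732, so more regions were held by all 6 lists than by exactly 5.

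The regions just outside the limit mostly carried peaks with an IDR over it rather than none. Of the 1651 regions in 5 lists, 640 were missing from untreated WT cells, 469 from treated KO, 257 from untreated KO, 132 from treated WT, 87 from treated Rescue and 66 from untreated Rescue cells. In 1461 of them (88.5%) the missing list did hold a deposited peak, with an IDR over the limit. The member nearest to the limit, chr20:3198802-3199699 (GRCh37, as all positions here), had a global IDR of 0.04999 in treated KO cells. Next came chr5:14663857-14665652 at 0.04991 in untreated KO cells and chr16:3988847-3989879 at 0.04984 in treated KO cells. Just outside lay chr18:8703926-8707876 at 0.05002 in untreated WT cells, chr12:54069358-54070537 at 0.05008 in treated KO cells and chr16:47494144-47496865 at 0.05011 in treated KO cells. Between these values the limit separates regions that hardly differ.

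**Figure D1:**
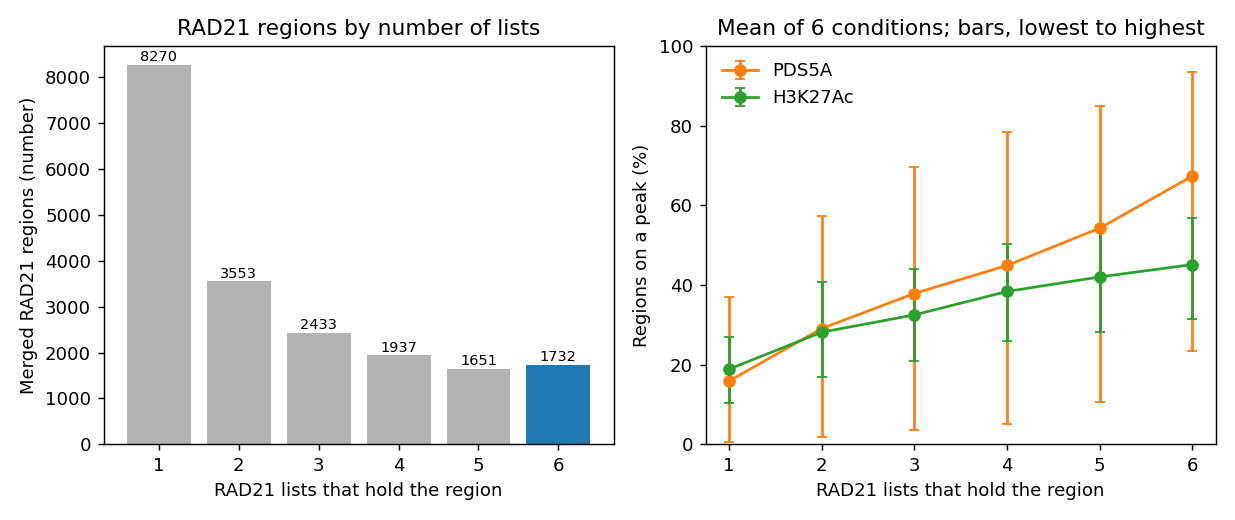
Left, number of merged RAD21 regions (y axis) by how many of the 6 RAD21 lists held them (x axis), with the 1732 shared regions in blue. Right, share of those regions on a PDS5A or H3K27Ac peak, as the mean of 6 conditions with bars from the lowest to the highest condition. The mean PDS5A share was 67.3% in regions of all 6 lists and 15.8% in regions of 1 list, and the mean H3K27Ac share was 45.1% and 18.8%. All 6 conditions count for each region, also those without a passing RAD21 peak there, which regions of fewer lists include. Compared within each list, shared minus other regions differed by a mean of 23.0 points for PDS5A and 7.84 points for H3K27Ac.

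Shared regions were wide and held strong peaks. Their median merged width was 1614.5 bp, and the middle 50% of them measured 1194 to 2111 bp. Regions of 1 list had a median of 842 bp and regions of 5 lists 1559 bp, but merging more peaks also widens a region. Single peaks allow a fairer reading. The median peak at shared regions was 1260 bp wide in treated Rescue cells, against 1011 bp for the other RAD21 peaks of that list, and 1350 bp in treated WT cells, against 973 bp for the others. In untreated Rescue cells it was 1219 bp against 970 bp, and in untreated KO cells 1051.5 bp against 950 bp. In treated KO cells the widths were close, at 1101.5 bp for shared regions and 1078 bp for the others. They were close in untreated WT cells too, at 1110.0 bp for shared regions and 1115 bp for the others. The median peak of a shared region stood at a percentile of 86.6 by strength in the list of treated Rescue, 84.4 in untreated Rescue, 68.6 in treated KO, 73.7 in untreated KO, 87.5 in treated WT and 64.5 in untreated WT cells. The other peaks stood at median percentiles of 35.4 to 45.5. Strength here is the authors' −log10 p of a peak, taken as the lower of its 2 replicate values, and it is used only to rank peaks within a list. Of the strongest 25% of peaks, 70.1% lay in shared regions in untreated WT cells but 31.0% in treated WT cells, the longest list.

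By passing peaks, the 3 widest and the 3 narrowest members differed in H3K27Ac but little in PDS5A. The part of width itself in this was not tested. The widest was chr2:28612041-28620570, with 8530 bp, PDS5A in 3 conditions and H3K27Ac in 5. It was followed by chr11:69450375-69457293, with 6919 bp, and chr2:241372543-241378791, with 6249 bp. These carried PDS5A in 4 and 3 conditions and H3K27Ac in 6 and 4. All told, 35 members were 4000 bp or wider. The narrowest were chr6:56157291-56157616 (326 bp), chr1:202153965-202154338 (374 bp) and chr17:66196787-66197162 (376 bp). Each of these had PDS5A in 3 conditions and H3K27Ac in 0. Counting every deposited peak, PDS5A lay on each of the 3 widest in 6 conditions and on the 3 narrowest in 3, 3 and 4.

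RAD21 lay at nearly the same base from condition to condition. The median distance between the RAD21 summits of osimertinib-treated and untreated cells was 29 bp in Rescue cells, 38 bp in KO cells and 34 bp in WT cells. This is about the distance between the 2 replicates of a list, which had medians of 35 to 50 bp. Over all 6 lists the summits of a shared region spanned a median of 90 bp, and 52.5% of regions kept them within 100 bp. The span exceeded 237 bp in the widest-spread 25% of regions, where summits of different lists may belong to neighbouring peaks that merging joined.

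PDS5A was found at more shared regions than at other RAD21 regions in all 6 conditions. It lay on 1571 of the 1732 shared regions (90.7%) in treated Rescue cells, against 63.4% of the other RAD21 regions of that list, with 67.7% over all RAD21 regions of the list. In untreated Rescue cells it lay on 1619 (93.5%), against 73.3% of the others, with 77.2% over all. Treated KO cells had it at 1202 (69.4%), against 46.7% of the others, with 55.9% over all. In untreated KO cells the count was 405 (23.4%), against 7.68% of the others, with 12.9% over all. Treated WT cells had 1480 (85.5%), against 55.6% of the others, with 58.8% over all. Untreated WT cells had 718 (41.5%), against 19.1% of the others, with 29.8% over all. Thus the share at shared regions ranged widely between conditions, while the excess over other regions stayed positive.

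The mean PDS5A share was 67.3% ± 28.9 at shared regions and 44.3% ± 25.7 at other regions (SD, n = 6 conditions each). The difference was 23.0 ± 5.04 percentage points, from 15.7 to 29.8, and positive in 6 of 6 conditions. An exact permutation test that flips signs over the n = 6 conditions (two-sided) gave p = 0.03125, the smallest it can give, and 0.0469 after Benjamini-Hochberg adjustment over 3 antibodies. For each antibody the 6 differences rest on the same shared regions of the same cell line, so they are not independent. RAD21 strength moved with this difference. Among the strongest 25% of RAD21 peaks alone the PDS5A excess was 11.7 points (adjusted p = 0.0938 by the same exact test, with an unadjusted p of 0.03125).

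**Figure D2:**
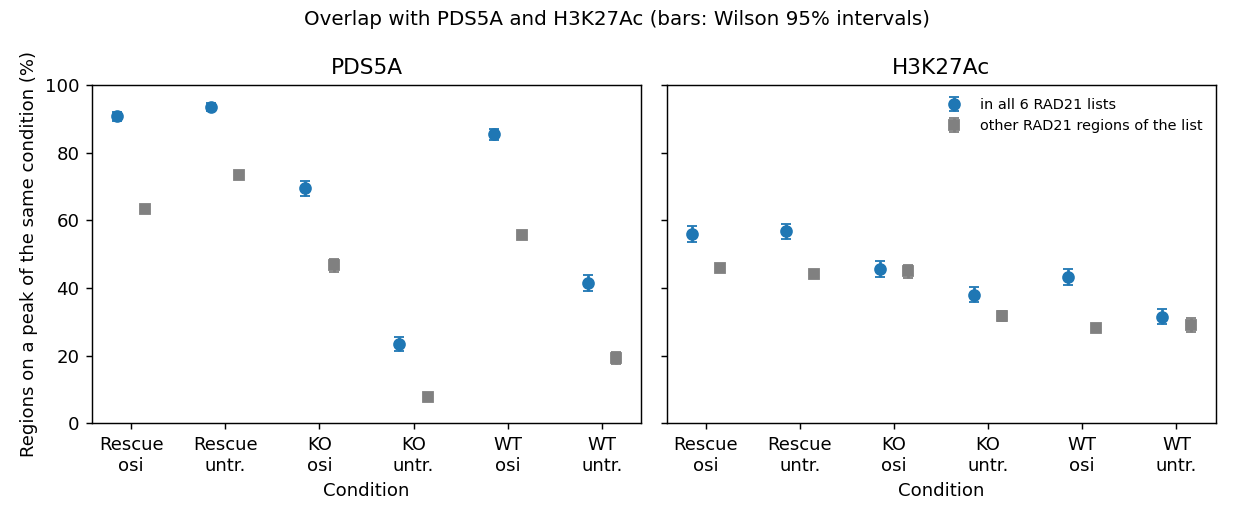
Share of RAD21 regions (y axis, %) on a PDS5A peak (left) or an H3K27Ac peak (right) of the same condition (x axis), for shared regions (blue circles) and for the other RAD21 regions of the list (grey squares), with Wilson 95% intervals that cover counting error only. PDS5A at shared regions ran from 23.4% in untreated KO cells to 93.5% in untreated Rescue cells and was above the other regions in each condition, while the H3K27Ac points came within 0.705 points of each other in treated KO cells.

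The PDS5A shares were lowest where the PDS5A lists were shortest, though not in strict order, since treated WT cells had a longer list than treated Rescue cells and a lower share. Those lists held 11243 passing peaks in treated Rescue, 13746 in untreated Rescue, 4021 in treated KO, 901 in untreated KO, 12323 in treated WT and 1731 in untreated WT cells. With every PDS5A list shortened to its 901 strongest peaks and every RAD21 list to 3635, 896 regions were shared by all 6. PDS5A then lay on 38.3% of them in treated Rescue, 36.0% in untreated Rescue, 40.0% in treated KO, 35.2% in untreated KO, 31.7% in treated WT and 39.5% in untreated WT cells. The shares of other regions in these shortened lists were 9.04% to 13.0%, and the mean excess was 25.8 points (adjusted p = 0.0938 by the same exact test, with an unadjusted p of 0.03125). Low-confidence peaks narrowed the spread as well: counting every deposited PDS5A peak, 100% of shared regions carried one in treated Rescue cells, 97.1% in treated KO, 81.6% in untreated KO, 99.8% in treated WT and 96.7% in untreated WT cells. Other RAD21 regions of the same lists carried one at 96.0% in treated Rescue, 94.6% in treated KO, 61.5% in untreated KO, 94.6% in treated WT and 89.3% in untreated WT cells, so most of these shares were near those of other regions.

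Where both were called, PDS5A summits lay close to RAD21 summits. The median distance between the RAD21 and PDS5A summits was 37 bp in treated Rescue, 40 bp in untreated Rescue, 52 bp in treated KO, 46 bp in untreated KO, 35 bp in treated WT and 44.5 bp in untreated WT cells. These distances are close to the 35 to 50 bp between RAD21 replicates. H3K27Ac summits lay farther off, at medians of 99 bp in treated Rescue, 123.5 bp in untreated Rescue, 144.5 bp in treated KO, 146.5 bp in untreated KO, 160.0 bp in treated WT and 155 bp in untreated WT cells. They also varied more between their own replicates, by medians of 65 to 99 bp.

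The difference in PDS5A between treated and untreated cells was large in KO and WT and small in Rescue cells, though with 1 list per condition that contrast between genotypes was not tested. Its share at shared regions was 69.4% in treated against 23.4% in untreated KO cells, 46.0 points higher, and 85.5% in treated against 41.5% in untreated WT cells, 44.0 points higher. In Rescue cells it was 90.7% in treated against 93.5% in untreated cells, a difference of −2.77 points. With 93.5% already in untreated cells, the Rescue share had little room to rise. The mean over the n = 3 genotypes was 29.1 ± 27.6 points (two-sided exact sign-flip permutation p = 0.5, adjusted 0.5, and 3 genotypes cannot go below 0.25). At equal list length the mean difference was −0.260 points. Giving every list the same number of peaks removes any general gain or loss of PDS5A. This value therefore cannot show whether list length made the difference. Deposited IgG peaks at shared regions also differed more between treated and untreated cells in KO and WT than in Rescue cells, but their order over the conditions was not that of PDS5A. They lay on 25.6% in treated against 1.91% in untreated KO cells and 47.0% in treated against 10.3% in untreated WT cells. In Rescue cells they lay on 11.2% in treated and 8.03% in untreated cells. The part of IgG in the PDS5A difference was not tested.

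Single regions followed the same split. In KO cells 832 shared regions (48.0%) had PDS5A only in treated cells and 35 only in untreated cells. Over all RAD21 regions of either KO list, 34.9% and 1.65% did so. Among WT cells 828 (47.8%) had it only in treated and 66 only in untreated cells, with 50% and 1.17% over all regions, so the treated-only share of shared regions was close to the background. That background, for each genotype, includes regions with RAD21 in only 1 of its lists, while shared regions had it in both. For Rescue the counts were 90 (5.20%) only in treated and 138 (7.97%) only in untreated cells, with 11.4% and 16.7% over all regions. Most treated-only regions did have a deposited untreated peak, with an IDR over the limit. Only 162 of the 832 in KO and 47 of the 828 in WT cells had no deposited PDS5A peak at all in untreated cells.

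Across conditions, PDS5A was present in all 6 at 266 shared regions (15.4%), against 2.15% of all RAD21 regions. It was absent from all 6 at 5 shared regions (0.289%), against 25.2% of all RAD21 regions. The shares of all RAD21 regions also count conditions in which a region had no passing RAD21 peak. The most common pattern, at 394 regions (22.7%), was PDS5A everywhere except untreated KO and untreated WT cells. Presence everywhere except untreated KO cells followed with 265 regions, and presence in both Rescue conditions and treated WT cells with 261. These 3 patterns drop the conditions in the order of the shortest PDS5A lists.

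**Figure D3:**
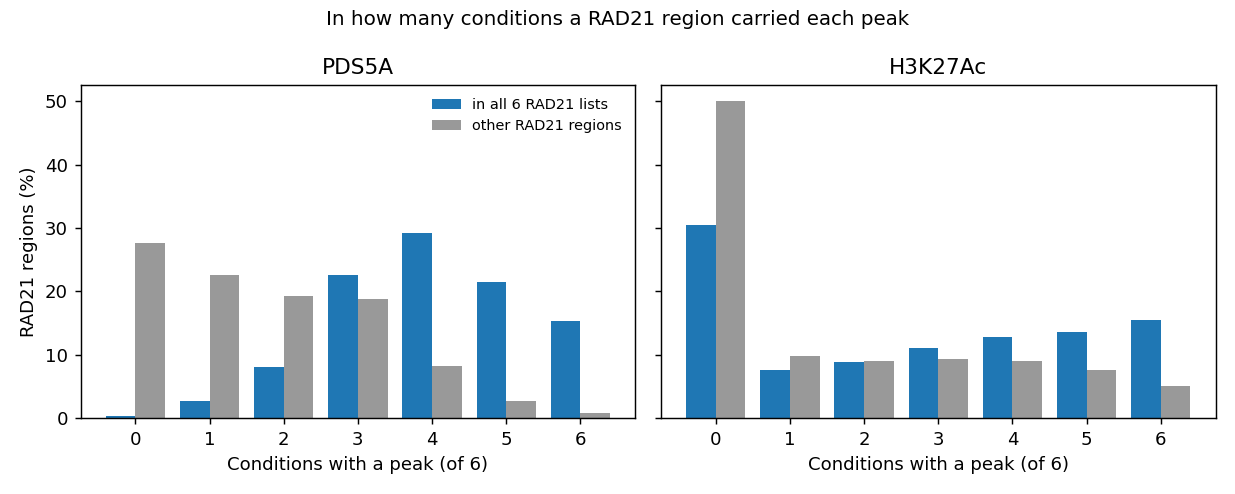
Share of RAD21 regions (y axis, %) by the number of conditions in which they carried a PDS5A (left) or H3K27Ac (right) peak (x axis), for shared regions (blue) and other RAD21 regions (grey). For PDS5A the shared regions peak at 4 conditions (29.3%) and the others at 0 (27.6%). For H3K27Ac both sets peak at 0, with 30.5% of shared and 50.1% of other regions. The counts for other regions include conditions without a passing RAD21 peak.

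H3K27Ac was present at fewer shared regions than PDS5A in the Rescue cells, in treated KO and in both WT conditions, and its excess over other regions was small. It lay on 967 shared regions (55.8%) in treated Rescue cells, against 45.8% of the others, with 47.4% over all RAD21 regions of the list. In untreated Rescue cells it lay on 982 (56.7%), against 44.1% of the others, with 46.5% over all. Treated KO cells had 790 (45.6%), against 44.9% of the others, with 45.2% over all, which is near the background. In untreated KO cells it was found at 658 (38.0%), against 31.6% of the others, with 33.7% over all. Treated WT cells had it at 747 (43.1%), against 28.2% of the others, with 29.8% over all. Untreated WT cells had it at 544 (31.4%), against 29.0% of the others, with 30.2% over all.

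The mean H3K27Ac share was 45.1% ± 9.92 at shared and 37.3% ± 8.49 at other regions (SD, n = 6 conditions each). The difference of 7.84 ± 5.66 points was positive in 6 of 6 conditions (two-sided exact sign-flip permutation p = 0.03125, adjusted 0.0469). This call did not hold under 5 settings. In 4 of them the difference was 1.15 to 1.86 points, and without the lists of treated WT cells it was 6.42 points (adjusted p = 0.0938 by the same exact test). That last setting could not keep the call, since 5 conditions cannot go below an unadjusted p of 0.0625, the value it gave. The difference was 1.54 points in lists of equal length (adjusted p = 0.781 by the same exact test) and 1.45 points among the strongest 25% of RAD21 peaks (adjusted p = 0.75).

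Between treatments the H3K27Ac share was 43.1% in treated against 31.4% in untreated WT cells, 11.7 points higher, and 45.6% in treated against 38.0% in untreated KO cells, 7.62 points higher. In Rescue cells it was 55.8% in treated against 56.7% in untreated cells, a difference of −0.866 points. Over the n = 3 genotypes the mean difference was 6.16 ± 6.42 points (two-sided exact sign-flip permutation p = 0.5, adjusted 0.5), and at equal list length it was −1.30 points. Equal length removes any general gain or loss of H3K27Ac peaks as well. The H3K27Ac lists held 12991 passing peaks in treated Rescue, 14177 in untreated Rescue, 8383 in treated KO, 5420 in untreated KO, 10077 in treated WT and 5045 in untreated WT cells. In WT cells 336 shared regions (19.4%) had H3K27Ac only in treated and 133 (7.68%) only in untreated cells, against 17.7% and 4.94% of all RAD21 regions of either WT list. In KO cells the counts were 253 (14.6%) and 121 (6.99%), against 15.3% and 7.21%. For Rescue they were 140 (8.08%) and 155 (8.95%), against 8.01% and 9.64%. In KO and Rescue cells these shares were close to those over all RAD21 regions, and in WT cells the untreated-only share was higher at shared regions. The sets are unlike, since shared regions had RAD21 in both lists of a genotype and the background needed only 1. Of the 16714 regions of either WT list, 16280 were in the treated and 3614 in the untreated list.

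The shared regions fell into classes by their passing H3K27Ac peaks, and those with none are called unacetylated below, although many held a peak over the IDR limit. H3K27Ac was present in all 6 conditions at 267 (15.4%), against 6.03% of all RAD21 regions, and in no condition at 528 (30.5%), against 48.3% of all RAD21 regions. The remaining 937 shared regions had it in 1 to 5 conditions. As for PDS5A, the shares of all RAD21 regions also count conditions without a passing RAD21 peak. Regions with H3K27Ac in all 6 had a median width of 1825 bp, those in 1 to 5 had 1769 bp and those in none 1151.5 bp. Counting every deposited peak, 251 shared regions still had no H3K27Ac in any condition.

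PDS5A was found in all 6 conditions at 34 of the 267 regions with constant H3K27Ac (12.7%), at 134 of the 937 (14.3%) and at 98 of the 528 with none (18.6%). In untreated KO cells it lay on 18.4% of the regions with constant H3K27Ac and 29.5% of those with none. In treated KO cells the order was the other way, with 73.4% and 61.0%. PDS5A therefore accompanied shared RAD21 at sites with and without passing H3K27Ac peaks. IgG moved with these classes: a deposited IgG peak of any IDR in any condition overlapped 86.9% of regions with constant H3K27Ac, 68.7% of those with H3K27Ac in 1 to 5 conditions and 13.1% of those with none. Its part in the results of these classes was not tested.

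Passing IgG peaks were rare at shared regions. They lay on 6 of 1732 (0.346%) in treated Rescue cells, 0 in untreated Rescue, 7 (0.404%) in treated KO, 0 in untreated KO, 67 (3.87%) in treated WT and 0 in untreated WT cells. A count of 0 allows a share of up to 0.173%, for counting error only. Over all RAD21 regions of the same lists the shares were 0.223%, 0.0224%, 0.47%, 0.0383%, 1.62% and 0%. The difference from other RAD21 regions averaged 0.411 points (two-sided exact sign-flip permutation p = 0.625 over n = 6 conditions, adjusted 0.625), with 2 of 6 positive. Treated minus untreated, the IgG share at shared regions differed by 1.54 ± 2.02 points over n = 3 genotypes, positive in 3 of 3. The same exact test gave p = 0.25, the smallest it can give here, and 0.5 adjusted. Counting every deposited IgG peak, the mean difference was 21.2 points. The IgG lists held 31 passing peaks in treated Rescue, 10 in untreated Rescue, 32 in treated KO, 6 in untreated KO, 310 in treated WT and 10 in untreated WT cells.

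Deposited IgG peaks of any IDR were common. Any deposited IgG peak overlapped 945 shared regions (54.6%), against 5337 other regions (29.9%). By condition this share was 11.2% at shared against 4.88% at other regions in treated Rescue cells, 8.03% against 4.97% in untreated Rescue, 25.6% against 23.0% in treated KO, 1.91% against 1.06% in untreated KO, 47.0% against 25.9% in treated WT and 10.3% against 8.50% in untreated WT cells. Without such regions 787 shared regions were left, and the PDS5A excess was 24.99 points (adjusted p = 0.0938 by the same exact test, unadjusted 0.03125) and that of H3K27Ac 1.15 points (adjusted p = 0.516).

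The members with the best worst rank, chosen for being strong in every list, are given first as a description. Ranks below run among the shared regions of a list, where 1 is the strongest. The region chr16:50839754-50840944, 1191 bp wide, ranked 1 in untreated Rescue, treated KO, untreated KO and untreated WT cells, 2 in treated Rescue and 6 in treated WT cells. Its lower replicate −log10 p was 292 in treated Rescue, 345 in untreated Rescue, 195 in treated KO, 215 in untreated KO, 238 in treated WT and 140.4 in untreated WT cells. It carried PDS5A in all 6 conditions, H3K27Ac in none, and no deposited IgG peak. Next came chr1:178510861-178512929, never below rank 14, with both PDS5A and H3K27Ac in all 6 conditions. The region chr2:233470305-233471426 never fell below rank 16 and again had PDS5A in 6 and H3K27Ac in 0 conditions. Completing the leading 5 were chr20:4201549-4203199 (worst rank 22, PDS5A in 5 and H3K27Ac in 3) and chr2:11969282-11971048 (worst rank 25, PDS5A in 6 and H3K27Ac in 3). Counting every deposited H3K27Ac peak, chr16:50839754-50840944 had one in 2 conditions and chr2:233470305-233471426 in 3, so they lacked passing H3K27Ac peaks only.

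Among the 98 regions with PDS5A in all 6 and H3K27Ac in none, those with the best worst rank were chr16:50839754-50840944 and chr2:233470305-233471426, followed by chr9:127614605-127616269 (worst rank 50), chr6:107996138-107997197 (66) and chr4:86717899-86718282 (67), a peak of 384 bp. Of the 34 regions with both in all 6, chr1:178510861-178512929 led. After it stood chr14:75760142-75763495 (worst rank 68), chr1:117663469-117665593 (93), chr2:24306350-24308575 (149) and chr2:48338138-48339697 (161). Deposited H3K27Ac peaks over the IDR limit lay on all 5 of the regions without a passing one, in 1 to 6 conditions, with all 6 at chr9:127614605-127616269. None of these 5 overlapped a deposited IgG peak, and each of the 5 with both marks overlapped 1 in 1 to 3 conditions.

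Rank was not constant for most members. Only 28 shared regions stayed among the strongest 100 in all 6 lists, while 212 were there at least once. The median member had a worst rank of 1450 and a span of 801 ranks between its best and worst list. Many ranks were tied, since the 1732 values of a list took 670 distinct values in untreated WT cells and 1065 in untreated Rescue cells. Across shared regions, the Spearman correlation of strength between the replicates of a list was 0.548 to 0.806. Between treated and untreated cells it was 0.669 in Rescue cells, 0.583 in KO cells and 0.425 in WT cells. The highest value between 2 lists was 0.715, for untreated Rescue and untreated KO cells. Treated WT cells stood apart, at 0.422 to 0.492 with every other list. These are descriptions across regions, which share libraries and are not independent.

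Rank changes under osimertinib were about as large as the differences between replicates in Rescue and KO cells, and larger in WT cells. The median change of rank was 225.5 in Rescue, against a median of 240.0 between replicates, and 264.5 in KO cells, against 261. In WT cells it was 329.5 against 219. The 2 measures are not alike. The change ranks the lower of 2 replicate values, while the replicate difference ranks each replicate alone and pools the treated and untreated lists. In WT cells that pool joins the list with the highest replicate correlation (0.806, treated) and that with the lowest (0.548, untreated). Both treated replicates ranked above both untreated ones at 337 regions (19.5%) in Rescue cells, 312 (18%) in KO cells and 394 (22.7%) in WT cells. Both ranked below at 317 (18.3%) in Rescue cells, 323 (18.6%) in KO cells and 406 (23.4%) in WT cells. The same direction in all 3 genotypes was seen at 14 regions (0.808%) upward and 22 (1.27%) downward. These counts were not set against the number that genotypes moving independently would give, so they are not read as a common response to osimertinib. Of the 14 upward regions 4 had H3K27Ac in no condition, as did 5 of the 22 downward regions.

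**Figure D4:**
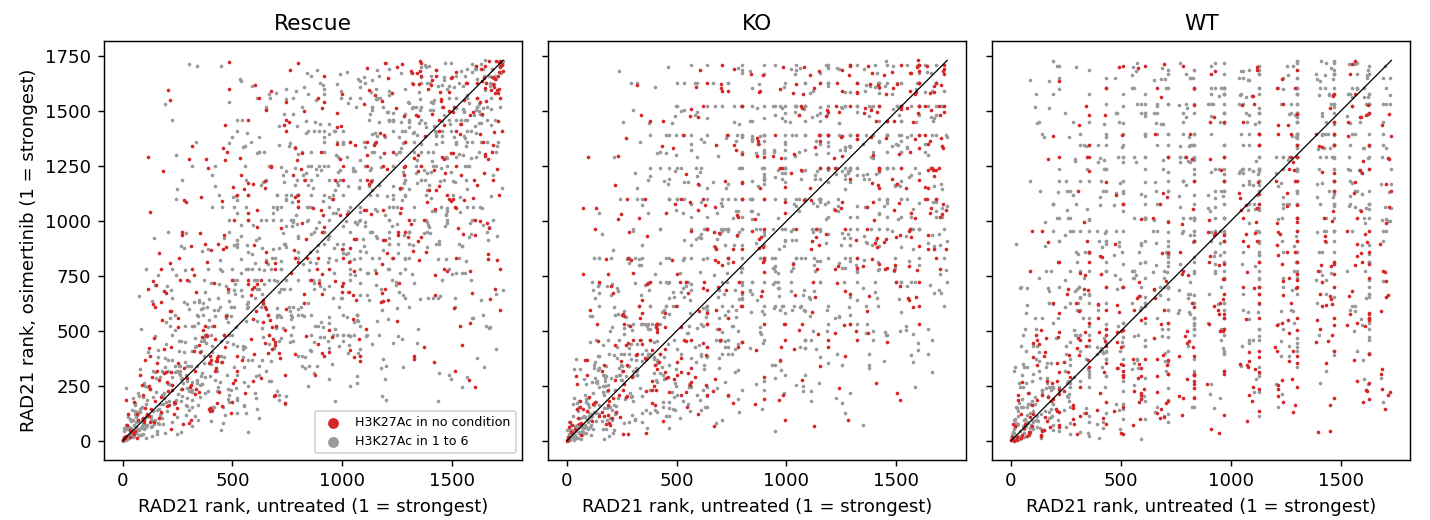
RAD21 rank of each shared region in osimertinib-treated cells (y axis) against untreated cells (x axis), 1 panel per genotype, where 1 is the strongest of 1732 and the line marks equal rank. Red points have H3K27Ac in no condition, grey points in 1 to 6. The spread is widest in WT cells (Spearman 0.425, against 0.669 in Rescue), and rows and columns of points are tied values.

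The regions that rose most, by their smallest rise over the 3 genotypes, were led by chr2:102636786-102637703. It ranked 374 in treated against 1325 in untreated Rescue cells, 429 in treated against 1187 in untreated KO cells and 411 in treated against 1471 in untreated WT cells. It had PDS5A in 3 conditions, both Rescue ones and treated WT, and H3K27Ac in none. The others were chr1:145096069-145097832, chr19:41945281-41946086, chr2:172749984-172751606 and chr19:40722218-40723929, whose smallest rises were 701, 650.0, 591 and 571 ranks. All 4 had H3K27Ac in 4 to 6 conditions. Ranked by each replicate alone, only chr1:145096069-145097832 and chr19:41945281-41946086 of the 5 ranked higher in the treated cells of all 3 genotypes by both replicates. The leading region ranked 404 in treated and 344 in untreated Rescue cells by replicate 1.

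Falling most was chr12:118813589-118816101, with rank 1708 in treated against 447 in untreated Rescue cells, 1394 in treated against 566 in untreated KO cells and 1702 in treated against 294 in untreated WT cells. Its replicates did not agree everywhere: in KO cells it ranked 322 in treated and 638 in untreated cells by replicate 2, but 1405 in treated and 495 in untreated cells by replicate 1. The next were chr2:227662927-227666147, chr1:15478626-15481352, chr1:114521421-114522780 and chr12:63187494-63187980, with smallest falls of 803, 625, 585 and 577 ranks. The last 3 had H3K27Ac in no condition. Of these 5, only chr2:227662927-227666147 and chr12:63187494-63187980 ranked lower in the treated cells of all 3 genotypes by both replicates.

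Some members ranked differently in treated KO cells from both other treated genotypes. The largest difference downward was at chr15:59663443-59665705, ranked 1712 in treated KO cells, 575 in treated Rescue and 557 in treated WT cells. Next were chr3:128771984-128772907, chr19:42210533-42211549, chr3:126107408-126108765 and chr9:94895947-94896886, lower in KO by at least 1132, 1114, 1096 and 1066 ranks. The KO ranks rest on the weaker replicate. By replicate 2 alone, chr19:42210533-42211549 ranked 472 and chr3:126107408-126108765 ranked 788 in treated KO cells, while by replicate 1 they ranked 1358 and 1609. At chr9:94895947-94896886 the direction turned, with rank 105 in treated KO cells by replicate 2, against 320.0 in treated Rescue and 180.0 in treated WT cells. Upward, chr1:114353518-114355685 ranked 315 in treated KO cells, 1601 in treated Rescue and 1650.0 in treated WT cells. It was followed by chr2:38151858-38153233, chr7:51230290-51231262, chr8:19613590-19616654 and chr5:153568780-153570925, higher in KO by at least 1250.0, 1183, 1142 and 1078 ranks. These 5 ranked higher in treated KO cells than in both other treated genotypes by each replicate alone. Each of these has 1 list per condition, so the differences have no replicate check beyond the 2 replicates inside a list.

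By acetylation class, median ranks lay between 821 and 917 in every list but that of treated WT cells. Regions with H3K27Ac in no condition had a median rank of 617 in treated WT cells, against 917 in untreated WT cells. Regions with constant H3K27Ac had 1060.0 in treated and 899 in untreated WT cells. In Rescue the unacetylated regions had 895 in treated and 889 in untreated cells, and in KO 890.5 and 897. The WT difference rested on replicate 2. With replicate 1 alone the unacetylated regions had a median rank of 747 in treated and 752.5 in untreated WT cells, and with replicate 2 alone 607 and 917. With replicate 1 in Rescue they went the other way, at 891 in treated and 551.5 in untreated cells. In KO cells they stood at 945 in treated and 649 in untreated cells by replicate 1, but 772 and 964.5 by replicate 2. The replicates thus gave different orders, and the ranks by class were not stable between them.

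**Figure D5:**
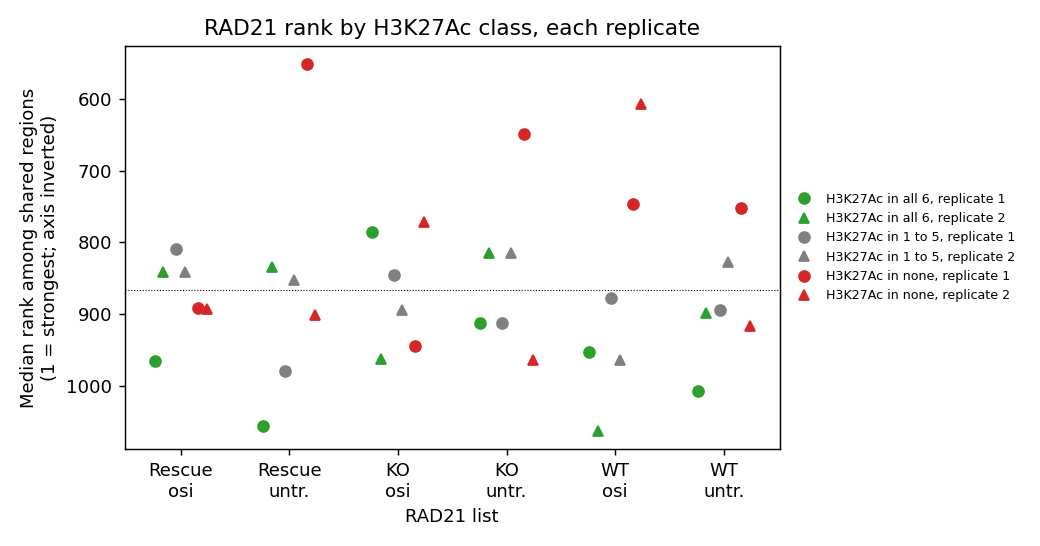
Median RAD21 rank among the shared regions (y axis, 1 is the strongest, axis inverted) in each list (x axis), for regions with H3K27Ac in all 6 conditions (green), in 1 to 5 (grey) and in none (red), by replicate 1 (circles) and replicate 2 (triangles). The dotted line is the middle rank. Red circles and triangles lie far apart in untreated Rescue (551.5 and 901.5), untreated KO (649 and 964.5) and untreated WT cells (752.5 and 917).

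Replicate 2 had the lower −log10 p at 96.0% of shared regions in treated Rescue, 81.6% in untreated Rescue, 14.4% in treated KO, 77.3% in untreated KO, 97.2% in treated WT and 99.9% in untreated WT cells. Strength as used here therefore came mainly from replicate 2 in every list but that of treated KO cells.

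Shared regions were spread along the autosomes. The median gap between neighbouring shared regions was 523 kb, with the middle 50% between 180 kb and 1.46 Mb, against 55.3 kb between the more numerous other regions. Of the shared regions 280 (16.2%) had another shared region within 50 kb, against 12.3% of other regions with a shared one that near. A neighbour of any kind within 50 kb was about equally frequent, at 71.5% of shared and 70.4% of other regions. Joined at 50 kb, the shared regions formed 1452 singles, 111 pairs, 15 groups of 3, 2 groups of 4 and 1 group of 5. The group of 5 spanned chr11:72851476-73001105, and the 2 groups of 4 lay at chr14:75743002-75775247 and chr7:148724819-148825236. The window from 72 to 73 Mb of chromosome 11 held 9 of its 27 RAD21 regions as shared ones, the highest count of any 1 Mb window.

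The closest neighbours were 122 bp apart, at chr5:172139533-172141103 and chr5:172141226-172143278. Next were pairs 156 bp apart at chr4:141071255-141074560 and chr4:141074717-141075903, and 277 bp apart at chr16:87811210-87811977 and chr16:87812255-87813401. The widest gaps within a chromosome arm, as far as the peaks show, were 26.0 Mb from chr4:11429224-11431711 to chr4:37454415-37456512, 25.9 Mb from chr18:45972739-45973559 to chr18:71863264-71864035, and 19.7 Mb from chr1:65289520-65290574 to chr1:84944750-84945818. These gaps were not empty, since they held 56, 64 and 88 RAD21 regions of fewer lists.

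Chromosomes differed in the share of their RAD21 regions that were shared. It was highest on chromosomes 20 (88 of 760, 11.6%, interval 9.49% to 14.0%) and 8 (80 of 692, 11.6%, 9.39% to 14.2%). Lowest were chromosomes 21 (4 of 146, 2.74%, 1.07% to 6.83%) and 18 (8 of 239, 3.35%, 1.71% to 6.46%). The intervals are Wilson 95% intervals and cover counting error only.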

How the data were processed

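CUT&RUN of RAD21, PDS5A, H3K27Ac and IgG in PC9 cells of 3 genotypes, treated or untreated, gave 24 peak lists, each from 2 replicates (48 samples; 12 H2A samples were not used here). Per the submitters' processing notes the tools included MACS2 2.2.7.1 and Bowtie2 2.4.2, with SAMtools 1.16, Trimmomatic and bedtools 2.30, and coordinates are on GRCh37. The deposited values are the −log10 p-value of each peak in each replicate, at least 3 throughout, and the −log10 of the global IDR. The peak caller's threshold and control and the IDR settings are not given in the sources used here. A peak joined by IDR keeps the outer bounds of both replicates, and lists hold only peaks matched between them. Depth per sample is unknown, since peak lists hold no read totals, and counts of peaks cannot be set against it.

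Peaks with a −log10 global IDR of at least 1.301 on chromosomes 1 to 22 were merged with Python 3.11.15, numpy 2.4.6, pandas 2.3.3 and scipy 1.17.1, and overlap meant 1 bp or more. Other RAD21 regions are those of the same list that not all 6 lists hold. Shares were compared over conditions or genotypes with two-sided exact sign-flip permutation tests, adjusted over 3 antibodies, so p-values measure only the spread between these lists. Replicates 1 and 2 are the first and the other replicate as the lists give them, which no source ties to the numbers in the labels. Where strength was ranked, a region took its strongest peak and tied values took the best rank. Regions were named by fixed criteria: best worst rank, largest smallest rise or fall, largest KO difference, width, gaps, nearness to the IDR limit, and marks in all 6 or none. Members, lists and criteria were chosen with earlier results of these data known. Merging and overlap were tested on simulated data, where 1761 of 1761 placed shared regions were found and 500 of 500 overlap calls matched a direct search. The alternatives were an IDR limit of 0.01, every deposited peak, other overlap rules, lists of equal length, the strongest 25%, regions without IgG peaks, chromosome X, single replicates and lists left out. No GRCh37 genome or annotation was used here, so no gene or sequence was read from a position.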

Additional observations from a re-analysis of the deposited data

Results flagged for a closer look

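The PDS5A share of shared regions, osimertinib minus untreated, differed in direction between genotypes, at −2.77 points in Rescue, 46.0 points in KO and 44.0 points in WT cells. In untreated Rescue cells it was already 93.5%, which left little room for a rise. The H3K27Ac share also differed in direction, at −0.866 points in Rescue, 7.62 points in KO and 11.7 points in WT cells. Some of these directions changed with the processing. At equal list length PDS5A lay on 38.3% of shared regions in treated and 36.0% in untreated Rescue cells. In KO cells the shares were 40.0% and 35.2%, and in WT cells 31.7% and 39.5%. H3K27Ac then lay on 32.5% and 34.4% in Rescue, 32.1% and 35.6% in KO, and 30.8% and 29.4% in WT cells. Equal length removes any general gain or loss of peaks, so it cannot show whether list length made the differences. With every deposited peak Rescue cells had PDS5A at 100% in treated and 99.9% in untreated cells, and H3K27Ac at 79.6% and 78.1%. With 1 list per condition, the difference between genotypes was not tested.

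Chromosome X, outside the main set, held 22 RAD21 regions found in all 6 lists.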

How the results depend on the processing

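The number of shared regions was 830 at an IDR limit of 0.01, 9665 with every deposited peak, 787 without regions on a deposited IgG peak and 896 with lists of equal length. It was 1796 to 2373 when 1 RAD21 list was left out. The PDS5A excess was positive in all 13 alternatives, from 6.74 to 39.1 points. Its adjusted p rose to 0.0938 at an IDR limit of 0.01 (27.8 points), without IgG regions (24.99), at equal length (25.8) and in the strongest 25% (11.7), where its unadjusted p remained 0.03125 and the adjustment changed because the H3K27Ac p was higher. It did so too without the lists of treated WT cells (21.7; chosen after seeing the data), where 5 conditions cannot go below 0.0625. The H3K27Ac excess lost its call in the same 5 settings, at 1.86, 1.15, 1.54, 1.45 and 6.42 points, with adjusted p of 0.563, 0.516, 0.781, 0.75 and 0.0938 by the exact test. In the last, without treated WT cells, its unadjusted p was 0.0625, the smallest possible, so the call could not be kept. For the other settings the cause was not tested. The IgG difference was called with every deposited peak (12.5 points) and with every deposited peak of the other antibodies (5.94). It was negative at equal length (−0.0855), in the strongest 25% (−0.0955) and without treated WT cells (−0.00975). At equal length the osimertinib difference was negative for H3K27Ac (−1.30) and PDS5A (−0.260), a setting that removes any general gain or loss of peaks. Without the bounds and values of replicate 1 or 2 there were 1731 to 1732 shared regions, which says nothing of stability, since calls rest on both replicates jointly. Regions that rose in rank in all 3 genotypes by the lower value numbered 214, and 244 to 303 by 1 replicate, and those that fell 225, and 266 to 280. Nor were these counts set against the number that genotypes moving independently would give. No paired analysis was possible because each list joins replicates 1 and 2 into 1 set of calls, so that replicate number could not enter as a block; treated and untreated lists were paired by genotype only. Precision is limited by 1 list per condition and unknown depth.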

Other observations

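The classes by H3K27Ac were also ranked by PDS5A values, which the membership did not use, and by RAD21 values in other sets of regions, all chosen after seeing the data. Among the 652 shared regions with PDS5A in both WT conditions, those with H3K27Ac in no condition had a median PDS5A rank of 241 in treated and 335 in untreated WT cells (193 regions). Among the 370 with PDS5A in both KO conditions, they had 239 in treated and 166 in untreated KO cells (139 regions), and among the 1481 with PDS5A in both Rescue conditions, 659 in treated and 605 in untreated Rescue cells (439 regions). At 1448 RAD21 regions in both WT lists but not in all 6, the unacetylated ones stood at a median RAD21 percentile of 62.4 in treated and 44.9 in untreated WT cells. Regions chosen likewise stood at 47.9 in treated and 44.2 in untreated KO cells, and at 42.1 in treated and 43.1 in untreated Rescue cells. Without regions on a deposited IgG peak, the unacetylated shared regions had a median RAD21 rank of 331 in treated and 403 in untreated WT cells, of 787. It was 393 in both treated and untreated KO cells, and 396 in treated and 401 in untreated Rescue cells. The RAD21 values here are the lower of 2 replicates, from the same libraries as above. In WT cells that was replicate 2 at 97.2% of shared regions in treated and 99.9% in untreated cells. By replicate 1 alone, the unacetylated shared regions had a median RAD21 rank of 747 in treated and 752.5 in untreated WT cells. The sets of this paragraph were not ranked by single replicates. These are descriptions across regions, with no test.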
